A study of Mus musculus with 6 samples.

Results

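Fibroblast growth factors (FGFs) are secreted signals, and 7 ligand genes and 3 receptor genes of this family that connective tissue cells are known to use were followed in muscle fibro-adipogenic progenitors, the mesenchymal cells of skeletal muscle that give rise to fibroblasts and adipocytes. The 10 genes were taken by symbol from 41388 gene rows: the ligands Fgf1, Fgf2, Fgf7, Fgf9, Fgf10, Fgf18 and Fgf21 and the receptors Fgfr1, Fgfr2 and Fgfr3. Primary cells of male wild-type mice had received PGE2 (prostaglandin E2) at 500 nM once a day on 2 days in 3 libraries, or vehicle on the same schedule in 3 libraries. The medium of every library held 10% fetal bovine serum and human FGF at 2.5 ng/mL, so all cells were under exogenous FGF. The labels do not name which human FGF was added. They are also silent on whether the numbered libraries are different animals or dishes, and every p-value is therefore set against a library-to-library spread that may be technical.

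FGF ligands bind receptor tyrosine kinases together with heparan sulfate on the cell surface, and the receptors signal through FRS2, RAS and the MAP kinases ERK1 and ERK2. Fgf21 is an exception among the members, acting as a hormone that needs the co-receptor beta-Klotho. Cells answer FGF by transcribing ETS factors such as Etv4 and Etv5 and inhibitors such as Sprouty and Dusp proteins, which feed back on the pathway. Fgf7 and Fgf10 are classic mesenchymal signals to epithelium and act on the IIIb splice form of Fgfr2, whereas mesenchyme mainly makes IIIc forms. Gene counts do not separate these splice forms.

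Totals lay between 38150216 and 52730962 counts in PGE2 libraries and between 21006044 and 42708381 in vehicle libraries, vehicle library 2 being the shallowest. Levels are given as CPM, that is, counts divided by the library total after scaling by trimmed mean of M values, and 3 counts equalled between 0.0582 and 0.142 CPM. The progenitor marker Pdgfra stood at 1126 to 1406 CPM in PGE2 libraries and at 1122 to 1455 CPM in vehicle libraries, and the 10 progenitor markers summed to 7676 to 20040 CPM with PGE2 and 7951 to 15800 CPM with vehicle. In the paired edgeR fit 3 of these 10 were higher (6.91% of all tested genes) and 2 lower (7.51%). Ly6a (log2 fold change 0.62, adjusted p = 0.00212), Pi16 (0.98, 0.00315) and Mfap5 (0.55, 0.00125) rose, and Cd34 (-0.59, 0.000748) and Lum (-0.66, 0.0289) fell. Ly6a did not overlap between groups, at 838 to 920 CPM with PGE2 and 528 to 610 CPM with vehicle. The 10 myogenic markers summed to 159, 18.5 and 18.5 CPM in PGE2 libraries 1 to 3 and to 237, 73.3 and 51.5 CPM in vehicle libraries 1 to 3, lower with PGE2 in every pair and highest in library 1 of each group. Of 8 tested, 5 fell in the paired fit, against 7.51% of all tested genes. In all pairs 7 were lower, while 52.1% of all tested genes had the same direction, up or down, in all 3 pairs. The paired median log2 fold change of these markers was -1.25. The stem cell marker Pax7 had at most 3 counts in every library. Summed markers of pericytes lay at 51.8 to 73.0 CPM with PGE2 and 68.6 to 106 CPM with vehicle. Of 6 pericyte markers 3 were lower in the paired fit, Rgs5, Notch3 and Cspg4, against 7.51% of all tested genes. The other 3, Kcnj8, Abcc9 and Myh11, had log2 fold changes above 0 and did not pass. Markers of endothelium summed to 19.3 to 33.8 and 21.6 to 47.5 CPM in the same order of groups. Summed markers did not overlap between groups for Schwann cells, at 4.24 to 5.10 CPM with PGE2 and 6.91 to 8.09 CPM with vehicle. Nor did those of macrophages and leukocytes, at 11.5 to 12.3 CPM with PGE2 and 8.57 to 9.22 CPM with vehicle. Of all tested genes, 25.9% did not overlap, up or down. Only 3 markers of each of these 2 lists were tested. In the paired fit 2 Schwann cell markers were lower (7.51% of all tested genes). There, 2 markers of macrophages and leukocytes were higher (6.91%). Sox10 and Ptprc were at 0 in every library. Adipocyte markers summed to 35.7 to 56.9 CPM with PGE2 and 36.1 to 60.2 CPM with vehicle. Of 3 tested, 1 was higher and 2 were lower in the paired fit, against 6.91% and 7.51% of all tested genes. Tendon cell markers summed to 12.5 to 25.45 CPM with PGE2 and 14.1 to 32.5 CPM with vehicle, and 1 of 5 was lower (7.51%). In bulk RNA, fewer cells of a type and less RNA per cell cannot be told apart, nor can the cells that a marker transcript came from.

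Fgf7 and Fgfr1 had the highest levels of the 10. To compare genes, CPM were divided by the length of the longest annotated transcript in kilobases. Fgf7 averaged 127 ± 3.44 CPM per kilobase with PGE2 and 100.3 ± 3.11 with vehicle (SD, n = 3 each), and Fgfr1 averaged 96.8 ± 2.92 with PGE2 and 93.2 ± 0.768 with vehicle. Fgf7 lay above Fgfr1 in 6 of 6 libraries.

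A middle tier held Fgf18 (12.2 ± 4.91 CPM per kilobase with PGE2, 7.98 ± 3.38 with vehicle), Fgf2 (10.97 ± 1.12 and 9.03 ± 1.54 in the same order of groups) and Fgf10 (7.41 ± 1.27 and 8.86 ± 0.967). Fgf18 and Fgf2 overlapped in each group and stood in this order in 3 of 6 libraries, so their order is not resolved, and Fgf2 and Fgf10 overlapped among vehicle libraries. Fgfr2 followed at 2.76 ± 0.590 with PGE2 and 3.70 ± 0.413 with vehicle, below Fgf10 in every library. Fgf1, Fgf21 and Fgfr3 were under 1 CPM per kilobase in all libraries. The order of the 10 was the same when merged exon length was used.

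**Figure D1:**
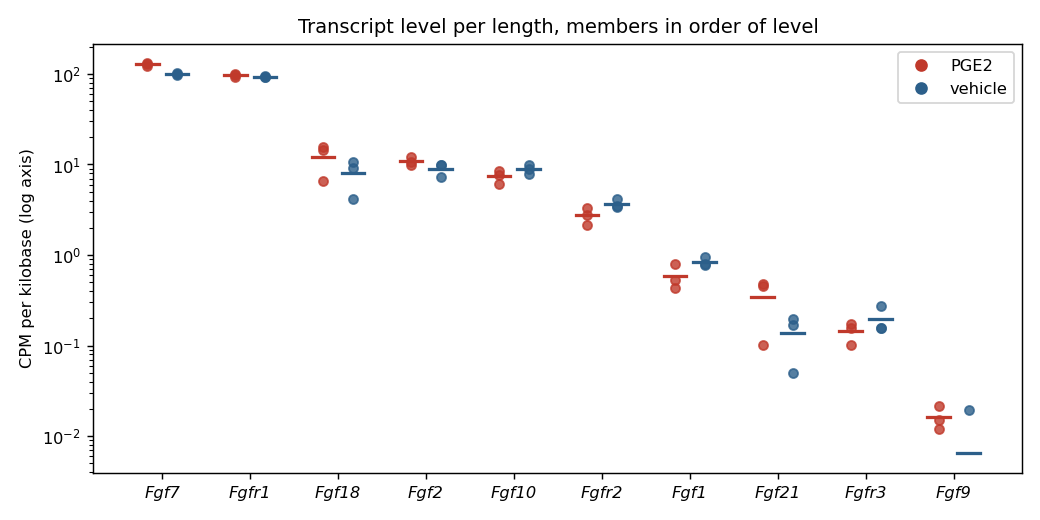
Transcript level per kilobase of the longest annotated transcript for the 10 members, on a log axis, with each library as a point and group means as lines, PGE2 left of vehicle. Fgf7 and Fgfr1 lie near 100 CPM per kilobase and Fgf9 lies lowest, where 2 vehicle libraries at 0 are not drawn.

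Counts of 8 members were high enough to be tested by edgeR over 15186 genes. Libraries carry numbers 1 to 3 in each group, and deviations of same-numbered libraries correlated, least for number 2 (0.169). A fit with the number as a block (the paired fit) is therefore given beside the unblocked one. Crossed pairs of libraries 2 and 3 also correlated (0.252 and 0.145), so the data do not single out the numbering there. None of the 8 members passed an adjusted p of 0.05 in the unblocked edgeR fit, where 0.342% of all tested genes passed, and 2 members had an unadjusted p under 0.05, as did 20.1% of all genes. DESeq2 without pairing called 1 member, Fgf7, and 6.02% of the genes it tested, while limma-voom called 0. In the paired edgeR fit 3 of 8 passed, Fgf7 and Fgf18 higher and Fgfr2 lower, where 14.4% of all genes passed, 6.91% higher and 7.51% lower, and paired DESeq2 called 3 members and 13.9% of genes. Fold changes had 1 direction in all 3 pairs for 6 of 8 members, against 52.1% of all genes. Groups did not overlap for 3 members, Fgf7, Fgf2 and Fgfr2, against 25.9% of all tested genes.

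Before their values, the sequences upstream of the 3 genes called in the paired fit are shown, since they let the bases before a RefSeq start of each be compared. Each is the 250 bases before the RefSeq transcription start on the gene's own strand in GRCm38.p6. Other starts of these genes were not looked at, and the Fgfr2 window lies inside the longer GENCODE record of Fgfr2. The windows are chr2:126034408-126034657 on the plus strand for Fgf7, chr11:33147401-33147650 on the minus strand for Fgf18 and chr7:130266809-130267058 on the minus strand for Fgfr2. Capitals mark a CCAAT box, the only searched motif found in the 3 windows.
Fgf7: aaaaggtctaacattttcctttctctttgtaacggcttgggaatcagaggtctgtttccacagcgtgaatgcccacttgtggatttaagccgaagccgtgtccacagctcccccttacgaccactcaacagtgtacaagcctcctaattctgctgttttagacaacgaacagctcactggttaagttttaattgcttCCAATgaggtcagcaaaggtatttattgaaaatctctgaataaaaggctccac
Fgf18: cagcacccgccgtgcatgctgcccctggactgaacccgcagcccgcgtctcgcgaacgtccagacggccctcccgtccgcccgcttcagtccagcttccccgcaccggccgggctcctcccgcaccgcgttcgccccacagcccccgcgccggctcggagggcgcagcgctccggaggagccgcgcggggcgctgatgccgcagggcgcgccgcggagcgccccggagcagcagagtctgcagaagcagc
Fgfr2: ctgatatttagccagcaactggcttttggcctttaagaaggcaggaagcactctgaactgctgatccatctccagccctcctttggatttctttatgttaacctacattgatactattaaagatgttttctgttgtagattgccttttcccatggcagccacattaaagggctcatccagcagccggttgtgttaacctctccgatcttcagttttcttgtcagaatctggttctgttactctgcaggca
The windows differed in composition. G and C made up 77.2% of the Fgf18 window, 43.6% of the Fgf7 window and 44.0% of the Fgfr2 window, against a median of 52.4% over 32851 promoter windows. Motifs were searched on either strand. The cyclic AMP response element TGACGTCA (in 1.55% of all windows), its core TGACG, which is contained in the full site (17.8%), the AP-1 site TGANTCA (6.75%) and the NR4A site AAAGGTCA (1.34%) had no match in these 3 windows, which says only that those letters are absent there. CCAAT occurs in 33.8% of all windows. Entries were found for 8 of the 10 members, and among the other 5 of these, the windows of Fgf2, Fgf9 and Fgf21 held TGACG and that of Fgfr3 held CCAAT. Matches are descriptions of letters, not of binding.

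Among the ligands, Fgf7, the keratinocyte growth factor, had the tightest values. It stood at 331, 349 and 342 CPM in PGE2 libraries 1 to 3, against 271, 275 and 259 CPM in vehicle libraries 1 to 3. Every PGE2 library was above every vehicle library, and the gap between groups was wider than the range within either. The log2 fold change was 0.35 ± 0.0723 (SE), a 1.27-fold difference with a 95% interval of 0.18 to 0.51 on the log2 scale. The edgeR adjusted p was 0.0961 in the unblocked fit and 0.0131 in the paired fit, and DESeq2 gave 0.00196 unpaired. Without pair 2 the paired edgeR adjusted p was 0.0863, at a log2 fold change of 0.35. Fgf7 (ENSMUSG00000027208) lies on chromosome 2 at 126034658 to 126091185, Fgf18 (ENSMUSG00000057967) on chromosome 11 at 33116970 to 33147400 and Fgfr2 (ENSMUSG00000030849) on chromosome 7 at 130162451 to 130266808 (RefSeq, GRCm38.p6).

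Fgf18, a ligand known from bone and lung mesenchyme, differed more by size and less evenly. Its levels were 7.21, 17.1 and 15.6 CPM in PGE2 libraries 1 to 3, against 4.56, 9.84 and 11.6 CPM in vehicle libraries 1 to 3. Library 1 was the lowest of each group, so the groups overlapped, while the PGE2 libraries were at 1.58, 1.74 and 1.35 times the vehicle library of their number. PGE2 libraries 2 and 3 also exceeded all 3 vehicle libraries. The log2 fold change was 0.62, with a SE of 0.438 unblocked (edgeR adjusted p = 0.469) and 0.111 paired (edgeR adjusted p = 0.0058), and it passed the paired fit with any 1 pair left out. Library 1, where Fgf18 was low, had the highest myogenic and the lowest progenitor marker sum of each group. Col3a1 and Col1a1 were the largest parts of that progenitor sum. Of its other markers, Cd34 was highest in library 1 of each group, Ly6a was neither highest nor lowest, and the rest were lowest there. The part of these sums in the result was not tested.

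Fgf2, a ligand without a classical secretion signal, measured 72.7, 59.6 and 64.2 CPM in PGE2 libraries and 59.4, 59.1 and 43.3 CPM in vehicle libraries. The groups did not overlap, but by a margin of less than 1 CPM between PGE2 library 2 and vehicle library 1. The log2 fold change was 0.28 ± 0.138 (edgeR adjusted p = 0.299), and 0.29 ± 0.1001 in the paired fit (edgeR adjusted p = 0.0762). Without vehicle library 3, the lowest, the log2 fold change was 0.14. In the paired fit it was 0.15 without pair 3, and 0.43 without pair 2, where it passed (edgeR adjusted p = 0.00947). Fgf2 shares 640 exon bases with Nudt6 on the opposite strand, and because the strand setting of the counting is not given, reads there cannot be assigned. Nudt6 itself had 3.89 to 5.49 CPM with PGE2 and 3.09 to 4.09 CPM with vehicle (log2 fold change 0.38, edgeR adjusted p = 0.304). Shared exon bases with other annotated genes also make Fgfr3 (998), Fgfr1 (164) and Fgf10 (123) uncertain in the same way. Annotated exons on the same strand are shared by Fgf2 with Gm43439 (255 bases) and by Fgfr2 with Ctbp2 (314 bases). The Fgfr2 overlap comes with a GENCODE record of Fgfr2 far longer than the RefSeq gene, and which record the counting used is not known here.

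Fgf10, the partner of Fgf7 on the same receptor form, had lower values with PGE2 but passed in neither fit. It had 24.8, 31.7 and 35.0 CPM in PGE2 libraries and 32.4, 40.3 and 36.7 CPM in vehicle libraries, lower with PGE2 in every numbered pair, at 0.765, 0.787 and 0.953 times. The log2 fold change was -0.26 ± 0.140 (edgeR adjusted p = 0.347), and the paired fit gave an edgeR adjusted p of 0.0655, which without pair 3 was 5.98e-05 at -0.37. Fgf1, the acidic FGF, was lower by a log2 value of -0.50 ± 0.248 (edgeR adjusted p = 0.305). Its levels of 3.17, 2.13 and 1.74 CPM with PGE2 and 3.07, 3.83 and 3.14 CPM with vehicle were lower with PGE2 in pairs 2 and 3 and not in pair 1, and without pair 1 the paired fit gave -0.85 (edgeR adjusted p = 0.0131).

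Fgf9 and Fgf21 were too low to test. Fgf9, a ligand of embryonic mesothelium and epithelium, had 2, 4 and 2 counts in PGE2 libraries and 0, 0 and 3 counts in vehicle libraries. Fgf21, the metabolic hormone, had 21, 5 and 16 counts in PGE2 libraries and 8, 1 and 7 counts in vehicle libraries. In CPM, Fgf21 was at 0.452, 0.0969 and 0.435 with PGE2 and at 0.186, 0.0473 and 0.162 with vehicle. The groups overlapped, and in pairs 1 to 3 the PGE2 level was 2.43, 2.05 and 2.69 times the vehicle level. Its co-receptor Klb had 1 count in all PGE2 libraries together and 9 counts, all in library 1, with vehicle.

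**Figure D2:**
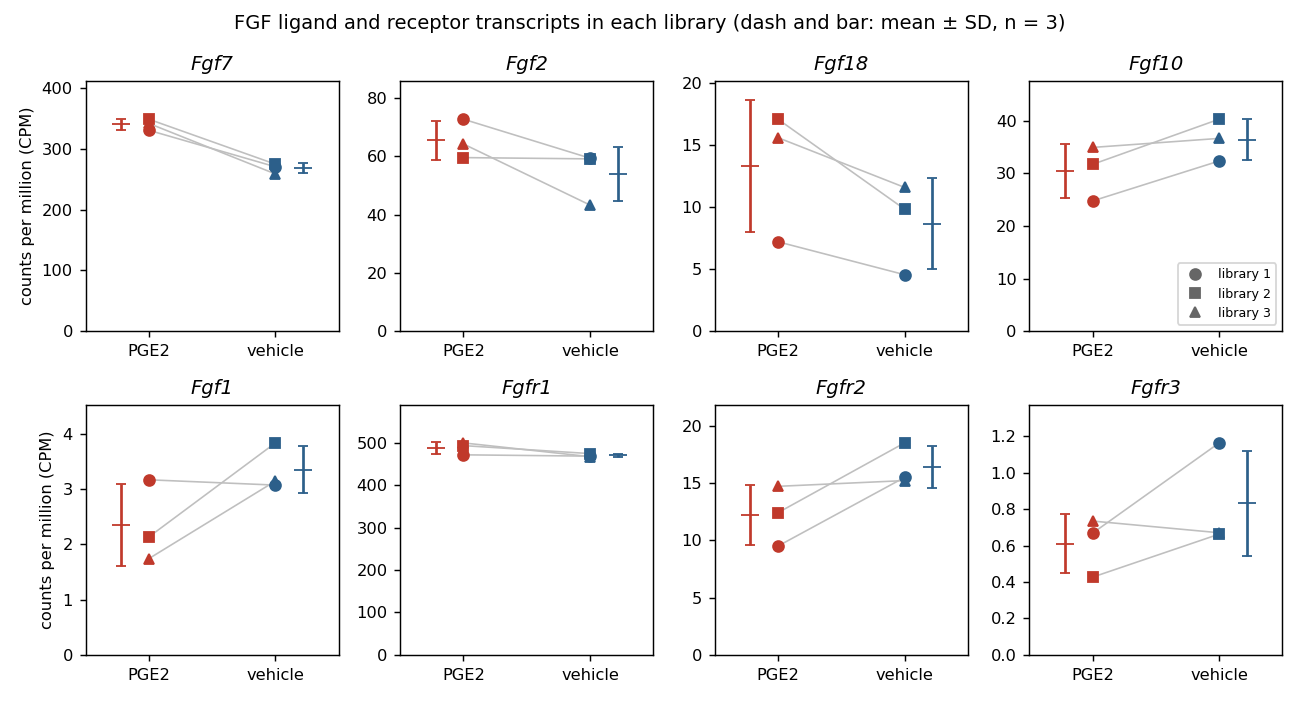
CPM of the 8 tested members in each library, each panel with its own axis from 0, PGE2 left of vehicle, grey lines joining libraries of the same number. Fgf7 separates by group in every library, Fgf18 rises with PGE2 along every line although the groups overlap, and Fgfr1 is nearly level.

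Receptor transcripts were almost all Fgfr1, which encodes the main FGF receptor of mesenchyme. Fgfr1 read 471, 493 and 499.5 CPM in PGE2 libraries and 468, 474 and 467 CPM in vehicle libraries. Its log2 fold change was 0.05 ± 0.0749 (edgeR adjusted p = 0.719), with a 95% interval of -0.12 to 0.23. The groups overlapped, and a p that misses the threshold does not show equal levels.

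Fgfr2 was lower with PGE2, at 9.50, 12.4 and 14.7 CPM, against 15.5, 18.5 and 15.2 CPM in vehicle libraries. No PGE2 library reached the lowest vehicle library, though PGE2 library 3 came within 1 CPM of it and in pair 3 the PGE2 level was 0.968 times the vehicle level. The log2 fold change was -0.42 ± 0.169 (edgeR adjusted p = 0.222), and -0.44 ± 0.127 in the paired fit (edgeR adjusted p = 0.0435). That call was lost without pair 1 (edgeR adjusted p = 0.203) or pair 2 (0.105) and was kept without pair 3 (1.05e-06). Markers of epithelium, where the IIIb form of Fgfr2 is typical, summed to at most 0.215 CPM with PGE2 and 0.372 CPM with vehicle, with Krt14 at 0 in every library.

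Fgfr3, a receptor best known in cartilage, had 0.668, 0.427 and 0.734 CPM with PGE2 and 1.16, 0.662 and 0.670 CPM with vehicle, with groups that overlapped. Its log2 fold change of -0.48 ± 0.347 did not pass (edgeR adjusted p = 0.476), and it was -0.15 without vehicle library 1. Of the transcripts of Fgfr1 to Fgfr4 per kilobase, Fgfr1 made up 96.5% to 97.6% with PGE2 and 95.6% to 96.3% with vehicle, and Fgfr2 2.24% to 3.24% with PGE2 and 3.57% to 4.24% with vehicle. Fgfr4, which is typical of myogenic cells, had 4, 3 and 6 counts with PGE2 and 25, 1 and 1 counts with vehicle, the 25 being in the library with the highest myogenic marker sum.

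**Figure D3:**
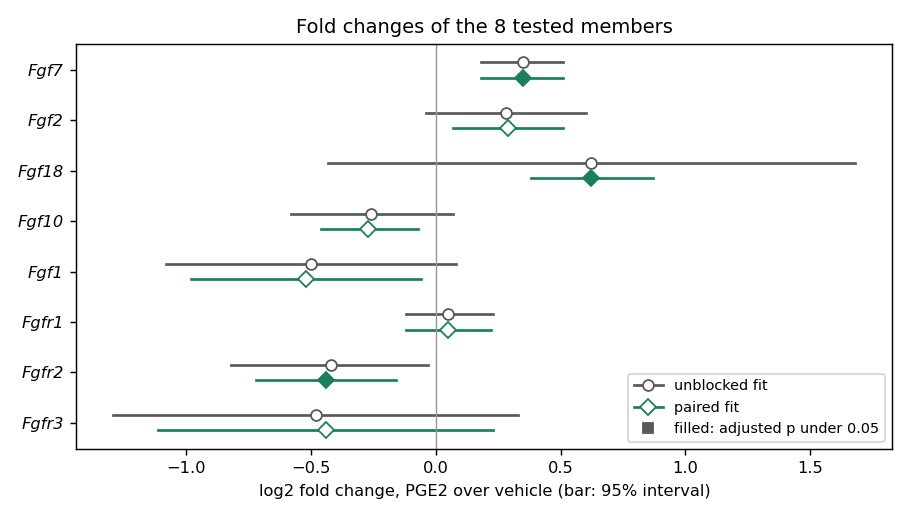
Log2 fold change of PGE2 over vehicle for the 8 tested members with 95% intervals, from the unblocked fit (circles) and the paired fit (diamonds), filled where the adjusted p is under 0.05. Only the paired values of Fgf7, Fgf18 and Fgfr2 are filled, and Fgf18 has the interval that narrows most, from -0.43 to 1.68 unblocked and from 0.38 to 0.87 paired.

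Ratios between members within a library do not depend on library scaling, and 2 were computed after the values had been seen. Fgf7 had 13.3, 10.99 and 9.78 counts for each Fgf10 count in PGE2 libraries and 8.36, 6.82 and 7.06 in vehicle libraries. The groups did not overlap, and the ratio was 1.53 times higher with PGE2. Fgfr1 had 49.6, 39.7 and 34.0 counts for each Fgfr2 count in PGE2 libraries and 30.2, 25.6 and 30.7 in vehicle libraries, 1.41 times higher with PGE2. Each two-sided exact permutation p was 0.1, the smallest that 3 against 3 libraries can give, so neither can pass 0.05.

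**Figure D4:**
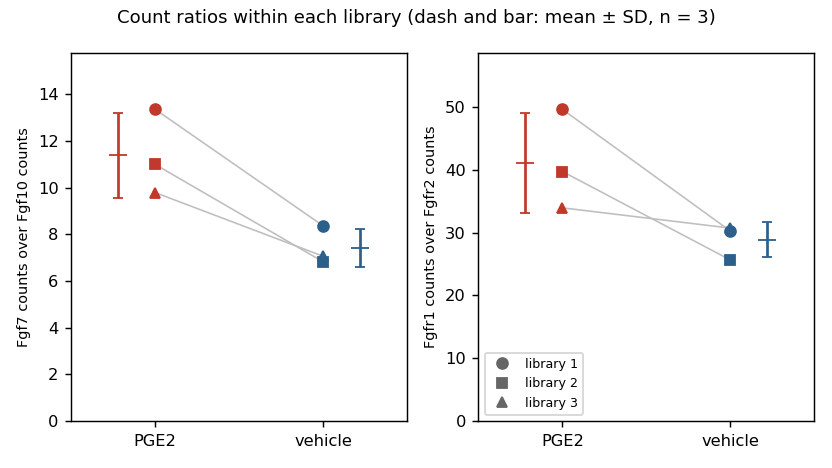
Fgf7 counts over Fgf10 counts (left) and Fgfr1 counts over Fgfr2 counts (right) in each library, axes from 0, PGE2 left of vehicle, with mean and SD beside the points. All PGE2 libraries lie above all vehicle libraries in each panel, closest for Fgfr1 over Fgfr2 in PGE2 library 3 (34.0) and vehicle library 3 (30.7).

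The 3 genes with a profile most like Fgf7, by root mean square difference of centred log2 CPM over 6 libraries among 10324 genes, were Adam9 (0.0321), a membrane metalloprotease, Sgk1 (0.0409), a serum-responsive kinase, and St3gal5 (0.0433), a ganglioside synthase. Adam9 stood at 643, 705 and 668 CPM with PGE2 and 539, 565 and 499 CPM with vehicle. None of the 3 passed in the unblocked edgeR fit, with adjusted p of 0.131, 0.0728 and 0.0961. Because they were picked for likeness to Fgf7 in the same 6 libraries, a similar difference between groups follows from the choice.

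The feedback inhibitors and response genes of FGF signalling were counted as a list. Of 18 tested feedback inhibitors and response genes, 0 passed the unblocked edgeR fit, with 8 at an unadjusted p under 0.05 (20.1% of all genes). DESeq2 unpaired called 4, against 6.02% of the genes it tested. In the paired edgeR fit 8 fell, against 7.51% of all tested genes, and 1 rose, against 6.91%. The list's median log2 fold change was -0.26, against -0.001 over all tested genes, and -0.141 with the length correction. The fallen genes were Spry2, Spry4, Spred1, Dusp4, Il17rd, Etv4, Etv5 and Ccnd1, and Ier2 rose.

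Il17rd, the membrane inhibitor of FGF receptors also called Sef, measured 4.39, 4.36 and 5.63 CPM with PGE2 and 6.95, 9.94 and 8.76 CPM with vehicle, without overlap (log2 fold change -0.82 ± 0.140, paired edgeR adjusted p = 0.00452, unblocked 0.0973). Dusp4, an ERK phosphatase, had 34.1, 26.3 and 35.7 CPM with PGE2 and 59.0, 46.0 and 44.9 CPM with vehicle, again without overlap (-0.64 ± 0.101, paired edgeR adjusted p = 0.00296, unblocked 0.113). The ETS factor Etv5 was at 19.0, 17.7 and 19.4 CPM with PGE2 and 25.3, 22.7 and 22.5 CPM with vehicle. Its paired log2 fold change was -0.33 ± 0.0858 (edgeR adjusted p = 0.0306, unblocked 0.123), and that call was lost without pair 1 (0.191) or pair 2 (0.15). Ier2, an immediate early gene, went up, with 37.1, 45.5 and 38.9 CPM under PGE2 and 24.2, 30.1 and 32.4 CPM under vehicle (0.49 ± 0.0900, paired edgeR adjusted p = 0.00651, unblocked 0.126).

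Further examples were picked after their values had been seen. Ccnd1, the cyclin of G1 phase, had 247, 121 and 93.2 CPM with PGE2 and 469, 223 and 180 CPM with vehicle. Its groups overlapped widely, yet within pairs it was 0.527, 0.544 and 0.518 times the vehicle level, and the edgeR adjusted p was 5.89e-05 paired and 0.345 unblocked. Etv4 also overlapped between groups, at 0.590, 0.584 and 0.640 times within pairs. Spry4, a Sprouty inhibitor, was at 12.5, 10.6 and 11.01 CPM with PGE2 and 22.1, 17.6 and 13.03 CPM with vehicle, and did not overlap. Not all feedback genes moved: Spry1 (log2 fold change -0.07) and Dusp6 (-0.10) were near 0 unblocked and did not pass in either fit. Ccnd1 and Etv4 were highest in library 1 of each group, as were the myogenic markers. Like the fallen feedback genes, the summed myogenic and pericyte markers were lower with PGE2 in every pair. Of the 6 pericyte markers, 3 had a paired log2 fold change above 0. The part of these markers in the results was not tested.

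**Figure D5:**
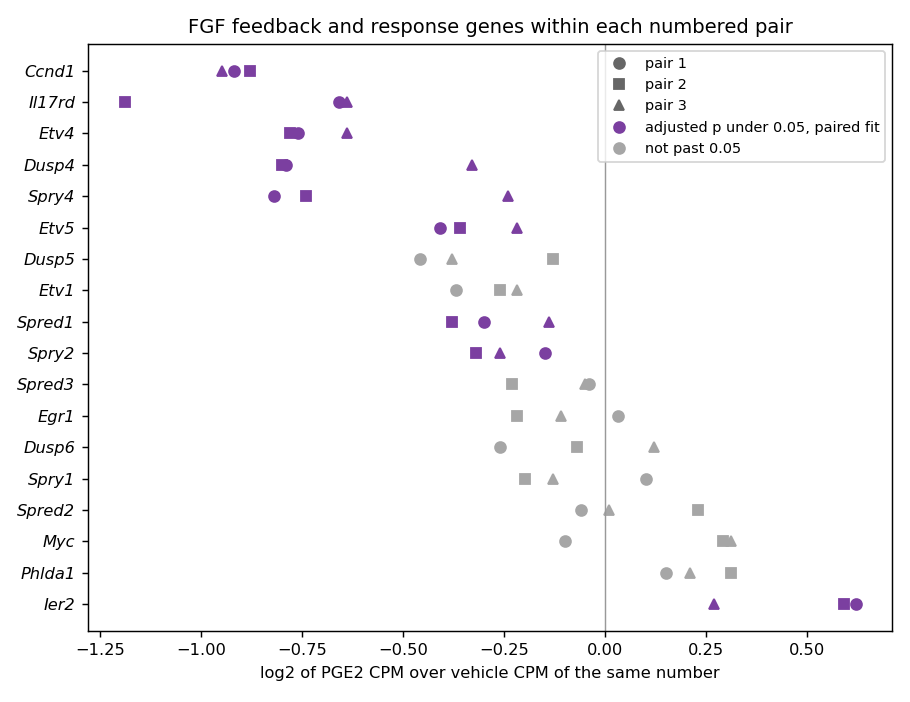
Log2 ratio of PGE2 CPM over vehicle CPM within each numbered pair for 18 FGF feedback and response genes, purple where the paired adjusted p is under 0.05. In 8 purple genes all 3 pairs lie below 0, in Ier2 all 3 lie above, and Ccnd1 has the 3 pairs closest together.

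With 1 pair left out, 6 genes of that list passed without pair 1, 6 without pair 2 and 12 without pair 3, while 1372, 1160 and 5097 of all genes passed in these fits. With a correction for transcript length the paired fit again called 9, against 16.8% of all genes. Dusp5 was then past the threshold (edgeR adjusted p = 0.0145) and Spred1 was not (0.0842).

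Heparan sulfate presents FGF to its receptors. Of 23 tested heparan sulfate proteoglycans, their enzymes and FGF-binding proteins, 0 passed unblocked in edgeR, 8 had an unadjusted p under 0.05 (20.1% of all genes), and the paired fit had 3 higher (6.91% of all genes) and 2 lower (7.51%). The list's median log2 fold change was -0.05. Sulf1, which removes 6-O-sulfate from heparan sulfate, was at 300.4, 350 and 424 CPM with PGE2 and 240 to 264 CPM with vehicle (log2 fold change 0.47 ± 0.0864, paired edgeR adjusted p = 0.00639, unblocked 0.13). The proteoglycans Sdc4 (0.39, paired edgeR adjusted p = 0.0173) and Sdc1 (0.32, 0.0392) rose, and the glypicans Gpc3 (-0.69, 0.032) and Gpc6 (-0.29, 0.0425) fell. Without pair 1 the list had 3 higher and 0 lower, so that both glypican calls were lost, and paired DESeq2 had 1 lower. Without pair 2 it had 2 higher and 2 lower, and without pair 3 it had 3 higher and 11 lower. Of all genes, 1372, 1160 and 5097 passed without pair 1, 2 or 3. With the length correction the paired fit had 5 higher and 3 lower, where 16.8% of all genes passed. The 6-O-sulfotransferase Hs6st2 was at -0.23 and Flrt1 at -0.69, and neither passed (paired edgeR adjusted p = 0.0725 and 0.0851).

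Of 18 tested signal transducers, 0 passed unblocked in edgeR, 4 had an unadjusted p under 0.05, against 20.1% of all genes. In the paired fit 1 rose, against 6.91% of all genes, the ERK kinase gene Map2k1 (log2 fold change 0.32 ± 0.0696, edgeR adjusted p = 0.0154). It had 166, 164 and 156 CPM with PGE2 and 140, 123 and 127 CPM with vehicle, without overlap. Without pair 2 the Map2k1 call was lost (edgeR adjusted p = 0.162), and 0 transducers passed. Without pair 1 there was 1 higher, and without pair 3 there were 2 higher and 7 lower. Of all genes, 1372, 1160 and 5097 passed without pair 1, 2 or 3. With the length correction the paired fit had 2 higher and 1 lower, where 16.8% of all genes passed. Plcg1 (-0.19) and the adaptor Gab1 (-0.26) did not pass in the paired edgeR fit, with adjusted p of 0.101 and 0.0829. The list's median was -0.096 unblocked and 0.069 with the length correction.

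Transcripts of other Fgf genes were scarce. Of 15, 12 were too low to test, with at most 6 counts in any library, and 4 of these were at 0 throughout. Fgf5 (-0.22), Fgf11 (0.03) and Fgf13 (-0.57) did not pass in either fit, edgeR adjusted p being at least 0.172. Fgf13 was lower with PGE2 in every pair, at 0.857, 0.464 and 0.535 times, and its log2 fold change was -1.49 without PGE2 library 1 and -0.10 without vehicle library 1. Fgfrl1, a receptor-like protein without a kinase domain, was well expressed at 62.3 to 73.7 CPM with PGE2 and 61.7 to 76.9 CPM with vehicle, a log2 fold change of -0.01 (edgeR adjusted p = 0.954).

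With a correction for transcript length the paired fit called 5 of 8 members, against 16.8% of all genes. Fgf2 (log2 fold change 0.42 ± 0.0715, edgeR adjusted p = 0.00132) and Fgf10 (-0.23 ± 0.0696, edgeR adjusted p = 0.0363) were then past the threshold beside Fgf7 (0.29), Fgf18 (0.46) and Fgfr2 (-0.39). The unblocked fit with that correction called 0 members and 0.0988% of all genes.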

How the data were processed

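Polyadenylated RNA was read as paired ends of 100 bases, per the labels' protocols. The authors deposited raw counts per gene, and the build was mm10 (GRCm38), per the submitters' processing notes. Aligner, counter, strand setting and annotation: not given in the sources used here. Genes were tested with edgeR 4.0.16 in R 4.3.3 (filterByExpr, TMM, robust quasi-likelihood test, Benjamini-Hochberg over 15186 genes, threshold 0.05). Fold changes are PGE2 over vehicle. Alternatives used DESeq2 1.42.0, limma 3.58.1, other scalings and filters, each library left out, and a length correction (lowess per library on the longest GENCODE M21 transcript, span 0.3).

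Members and lists were chosen with earlier results of these data known, and the lists are counted without a set test. All 10 members are named, and of each pathway list those past the threshold, or else up to 4 with the smallest adjusted p. The values of 1 gene that this rule names are not reported here. Deviations from group means correlated at 0.621, 0.169 and 0.422 for same-numbered libraries, all above the rule of 0.1, so the paired fit is given. PGE2 library 2 correlated more with vehicle library 3 (0.252), and PGE2 library 3 with vehicle library 2 (0.145) also passed the rule. The rule therefore cannot tell how libraries 2 and 3 pair. Pairing by number comes from the data, since the labels do not say what a number marks. Libraries of a group differed by chi-square values of at least 19.3 per degree of freedom, which is more than sampling reads of the same library again would give. These values cannot tell separate libraries of the same dish or animal from libraries of different ones. The fits were tested on simulated data. Positions and upstream sequences are from RefSeq, GRCm38.p6.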

Additional observations from a re-analysis of the deposited data

How the results depend on the processing

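All 8 tested members kept the direction of their fold change in all 20 alternatives. The threshold of 0.01 is among these and reuses the unblocked fold changes, so it could not change a direction. Members past the threshold numbered 0 unblocked, 3 with the replicate block, 1 in unpaired DESeq2, 3 in DESeq2 with the block, and 5 with the block and length correction. They numbered 0 with each library left out, and 2 to 4 with the block and each pair left out. Pathway list genes past the threshold numbered 0 unblocked, 15 with the replicate block, 6 in DESeq2, 13 in DESeq2 with the block, 1 with no filter, 20 with block and length correction, and 10 to 35 with the block and each pair left out. Over all genes the count was 52, and 2189 with the replicate block, 829 in DESeq2, 1921 in DESeq2 with the block, 15 in limma-voom, 285 with no filter, 15 with the length correction, 2549 with block and length correction, 0 at a threshold of 0.01, 0 to 120 with each library left out, and 1372, 1160 and 5097 with the block and pair 1, 2 or 3 left out. It was 0 without PGE2 library 2 or 3 or vehicle library 2 or 3. Scaling by library totals gave 31 higher and 34 lower, against 32 and 20. The order of levels kept 8 to 9 of its 9 neighbouring pairs. Fgf11 and Fgfrl1, near 0, changed sign: Fgf11 was at -0.02 with library totals, -0.000393 with the length correction, -0.08 to 0.19 with each library left out and -0.14 to 0.20 with the block and each pair left out, and Fgfrl1 at -0.09 to 0.07 and -0.03 to 0.01 in those last 2 settings. The cause of these differences was not tested. DESeq2 with the block, and the block with each pair left out, were chosen after seeing the data. Vehicle library 2 was the shallowest, with 21006044 counts, of which Fgf21 had 1 and Fgf9 0.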
